A study of Sus scrofa with 4 samples.

Results

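ATP-binding cassette (ABC) transporter genes, with ABCB1 at the centre, were followed in porcine oocytes matured with or without a SIRT6 inhibitor. Members were the genes whose symbol begins with ABC, a family letter from A to G and a digit. These were ABCB1, ABCG2, ABCA1, ABCD3 and ABCF1, which is 5 of the 4381 gene symbols listed and 5 of the 2387 genes tested. All 5 passed the filter on low counts. The porcine RefSeq annotation holds 41 symbols of this form, and the others were not analysed here. RNA was sequenced from metaphase II oocytes in 4 libraries, 2 of control oocytes and 2 of oocytes treated with SIRT6-IN-1, a small-molecule inhibitor of the deacetylase SIRT6. Oocytes came from ovaries of slaughtered pigs and were matured in vitro for 42 to 44 h, with 100 μM SIRT6-IN-1, dissolved in DMSO, in the SIRT6-inhibited group. Whether control oocytes received DMSO is not given in the sources used here. Groups were of 100 oocytes, and the number in each library is not given either. The sample labels name Smart-seq2 amplification of lysed cells, whereas the methods of the study describe RNA purified on columns, and which of these gave the counts could not be told. Totals over the listed genes were 4646129 and 3405960 counts in control 1 and 2, and 3239200 and 4972602 counts in SIRT6-inhibited 1 and 2. Nothing says that the libraries of a group came from separate cultures, so p-values measure the spread between these libraries, which may be technical.

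ABC proteins bind and hydrolyse ATP, and most of them use that energy to carry lipids, drugs, bile salts, metals or peptides across membranes. ABCB1, also called P-glycoprotein, and ABCG2 pump many drugs and toxins out of cells, and P-glycoprotein is present in mammalian oocytes and the cumulus cells around them. ABCA1 exports cholesterol and phospholipid, ABCD3 brings long-chain and branched acyl-CoA into peroxisomes, and ABCF1 has no membrane part and takes part in starting translation.

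ABCB1 was read deeply in every library. It had 13616 and 9435 counts in control 1 and 2, and 8833 and 14473 counts in SIRT6-inhibited 1 and 2. Scaled to a common library total with edgeR's TMM factors, as normalized CPM, these were 2940 and 2656 in control libraries and 2744 and 3014 in SIRT6-inhibited libraries. The highest value was in SIRT6-inhibited 2 and the lowest in control 2, and the groups overlapped. Mean normalized CPM of ABCB1 was 2798 ± 201 (SD, n = 2) for the controls against 2879 ± 191 (SD, n = 2) under SIRT6 inhibition. The log2 fold change of ABCB1 in SIRT6-inhibited over control oocytes was 0.04 with a standard error of 0.11 (edgeR's quasi-likelihood test, adjusted p = 0.989). Its 95% interval ran from -0.22 to 0.30, a fold of 0.857 to 1.24. No difference was detected, and changes of ABCB1 within that range remained compatible with these libraries. The sign turned with library totals alone, to -0.02, and without control 2, to -0.03, or without SIRT6-inhibited 2, to -0.03. On Sscrofa11.1, RefSeq places porcine ABCB1 on chromosome 9 from 93049955 to 93146469. The submitters' processing notes name this build as susScr11, beside the mouse build mm10, with no role for either.

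ABCB1 took 0.293% of the counts in control 1 (exact Clopper-Pearson 95% interval 0.288 to 0.298) and 0.277% in control 2 (0.271 to 0.283). The ABCB1 share was 0.273% in SIRT6-inhibited 1 (0.267 to 0.278) and 0.291% in SIRT6-inhibited 2 (0.286 to 0.296). Before scaling, the intervals of control 1 and SIRT6-inhibited 2 overlapped at the upper end, and those of control 2 and SIRT6-inhibited 1 at the lower end. These intervals cover counting error only, since amplified reads are not independent molecules.

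**Figure D1:**
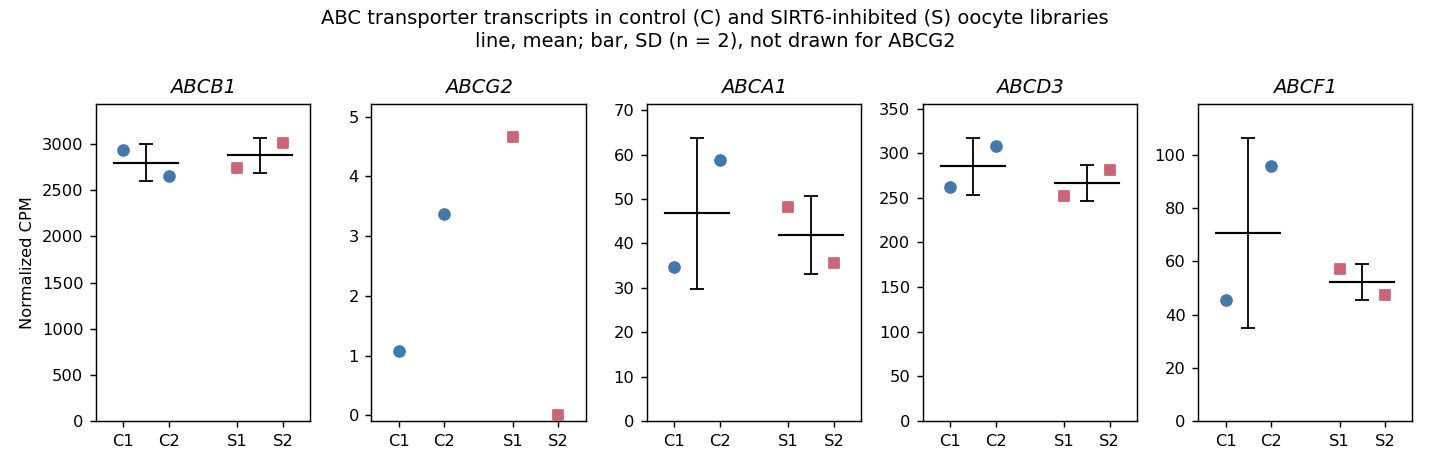
Normalized CPM of the 5 ABC transporter genes in each library, with each vertical axis starting at 0 (for ABCG2 just under 0, so that its point at 0 shows), circles for control 1 and 2 (C1, C2), squares for SIRT6-inhibited 1 and 2 (S1, S2), a line at the group mean and a bar of ± SD (n = 2) except for ABCG2. The points of the groups overlap for all 5 genes, and ABCF1 in control 2, at 96.0, stands above its other 3 libraries, between 45.3 and 57.2.

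ABCG2, the other broad drug exporter among the members, was at the edge of detection. It was counted 5 and 12 times in control 1 and 2, and 15 and 0 times in SIRT6-inhibited 1 and 2. Normalized CPM of ABCG2 were 1.08, 3.38, 4.66 and 0 in that order, and 3 counts, taken as the floor, corresponded to 0.625 CPM in SIRT6-inhibited 2. The SIRT6-inhibited libraries held both the highest and the lowest ABCG2 value, so the control values lay between them. The log2 fold change was 0.05 with a standard error of 2.60 and a 95% interval from -6.17 to 6.28 (edgeR, adjusted p = 0.996). As a share of counts, the exact 95% interval of ABCG2 was 0.000259% to 0.000764% in SIRT6-inhibited 1 and 0% to 7.42e-05% in SIRT6-inhibited 2, which had the larger total, so the intervals did not overlap, though amplified reads make such intervals too narrow. No difference in ABCG2 between the groups was detectable with these libraries, and its direction turned in 4 alternative fits. Without SIRT6-inhibited 1, which leaves a single library at 0, ABCG2 was at least 3.57-fold lower against 3 counts in that library. Porcine ABCG2 lies on chromosome 8 from 130853414 to 130945388.

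ABCA1 passes cholesterol to apolipoproteins at the plasma membrane. Its counts were 161 and 209 in control 1 and 2 and 155 and 171 in SIRT6-inhibited 1 and 2, or 34.8, 58.8, 48.2 and 35.6 normalized CPM. Control 2 was highest and control 1 lowest, with both SIRT6-inhibited libraries between them. Group means of ABCA1 were 46.8 ± 17.0 (SD, n = 2) and 41.9 ± 8.87 (SD, n = 2) normalized CPM, and the log2 difference between them was -0.16 (standard error 0.49, 95% interval -1.33 to 1.01, edgeR's adjusted p = 0.989). Without control 2 the log2 fold change of ABCA1 was 0.26, and without SIRT6-inhibited 2 it was 0.04. The gene lies on chromosome 1 from 246144277 to 246278492.

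ABCD3, a major protein of the peroxisomal membrane, was counted 1215 and 1094 times in control 1 and 2, and 812 and 1350 times in SIRT6-inhibited 1 and 2. Its normalized CPM were 262, 308, 252 and 281. Control 2 was again highest, SIRT6-inhibited 1 lowest, and the groups overlapped. ABCD3 averaged 285 ± 32.3 (SD, n = 2) in the control group and 267 ± 20.4 (SD, n = 2) in the SIRT6-inhibited group. The log2 fold change was -0.10 (standard error 0.18, edgeR's adjusted p = 0.980) with a 95% interval from -0.54 to 0.35, a fold of 0.689 to 1.27, and it was 0.02 without control 2. Porcine ABCD3 is on chromosome 4 from 122847925 to 122929454.

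ABCF1 works with the initiation factor eIF2 on ribosomes. Its counts were 210 and 341 in control libraries and 184 and 228 in SIRT6-inhibited libraries, or 45.3, 96.0, 57.2 and 47.5 normalized CPM. One library decided the group difference, because control 2 lay above all others while control 1 was the lowest of the 4. Means of ABCF1 were 70.7 ± 35.8 (SD, n = 2) and 52.3 ± 6.84 (SD, n = 2) normalized CPM. The log2 fold change was -0.43 with a standard error of 0.45 and a 95% interval from -1.51 to 0.65 (edgeR, adjusted p = 0.952), and without control 2 it was 0.20. ABCF1 lies on chromosome 7 from 23126255 to 23144030.

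**Figure D2:**
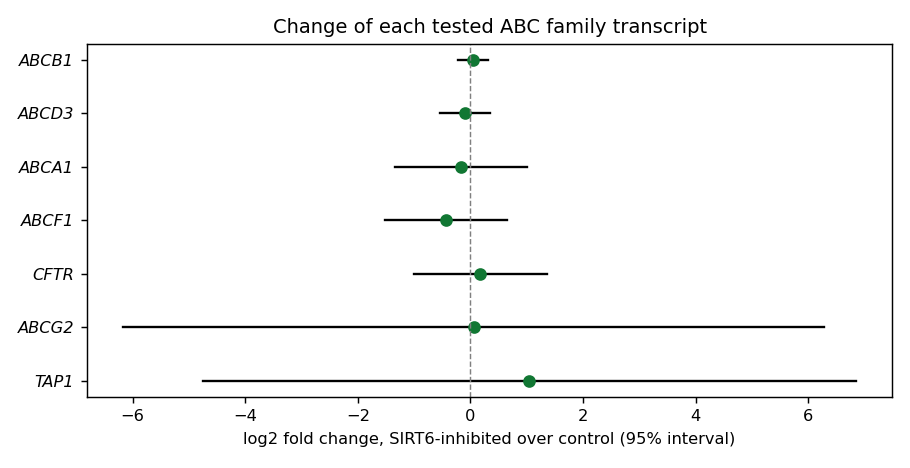
Log2 fold change in SIRT6-inhibited over control oocytes (point) with its 95% interval (line) for the 5 ABC transporter genes and for CFTR and TAP1, family members under other symbols. Every interval crosses 0, that of ABCB1 from -0.22 to 0.30 and that of ABCG2 from -6.17 to 6.28.

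None of the 5 ABC genes had an unadjusted p under 0.05 in edgeR's quasi-likelihood test, 0 lower and 0 higher, beside 216 of 2387 tested genes (9.05%), of which 143 were lower (5.99%) and 73 higher (3.06%) in SIRT6-inhibited oocytes. After Benjamini-Hochberg adjustment the count was 0 of 5 ABC genes, beside 0 of all tested genes (0%). DESeq2's Wald test gave 0 ABC genes at an unadjusted and 0 at an adjusted p under 0.05, beside 237 and 37 of all genes. It gave ABCG2 no adjusted p. With limma-voom these counts were 0 and 0 ABC genes, beside 231 and 0 of all genes. The libraries of the groups overlapped for all 5 ABC genes, whereas they did not overlap for 958 of the tested genes (40.1%). Of the ABC genes, 3 had a log2 fold change below 0 and 2 above, with a median of -0.10, beside a median of -0.04 over all tested genes. With 5 genes, these shares say little about the family.

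The members differed in how closely the libraries of one group matched. The coefficient of variation of ABCB1 was 7.17% between control libraries and 6.63% between SIRT6-inhibited libraries, while counting alone gave between 0.831% and 1.06% for its counts. ABCD3 had coefficients of 11.3% and 7.66%. Variation was wider for ABCA1, at 36.4% and 21.2%, and for ABCF1, at 50.7% and 13.1%. ABCG2 was widest, at 72.9% and 141%, the latter with SIRT6-inhibited 2 at 0 counts. Counting alone gave 2.72% to 3.51% for ABCD3, 6.92% to 8.03% for ABCA1 and 5.42% to 7.37% for ABCF1. For ABCG2 it gave 25.8% to 44.7% in the libraries where the gene was counted.

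Between libraries of a group, 1840 genes reaching 10 counts in each of the 4 libraries were compared. Their median absolute log2 difference was 0.310 between the control libraries and 0.336 between the SIRT6-inhibited libraries. For ABCB1 these differences were 0.146 and 0.135, with 25.8% and 24.9% of the genes at smaller values. Many of these genes had low counts and wider differences. Among the 49 genes with a mean level at or above that of ABCB1, 40.8% had a smaller difference than ABCB1 between control libraries and 81.6% between SIRT6-inhibited libraries, so ABCB1 was not among the steadiest genes of its level. ABCF1 and ABCA1 lay above the median of all 1840 genes between control libraries.

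**Figure D3:**
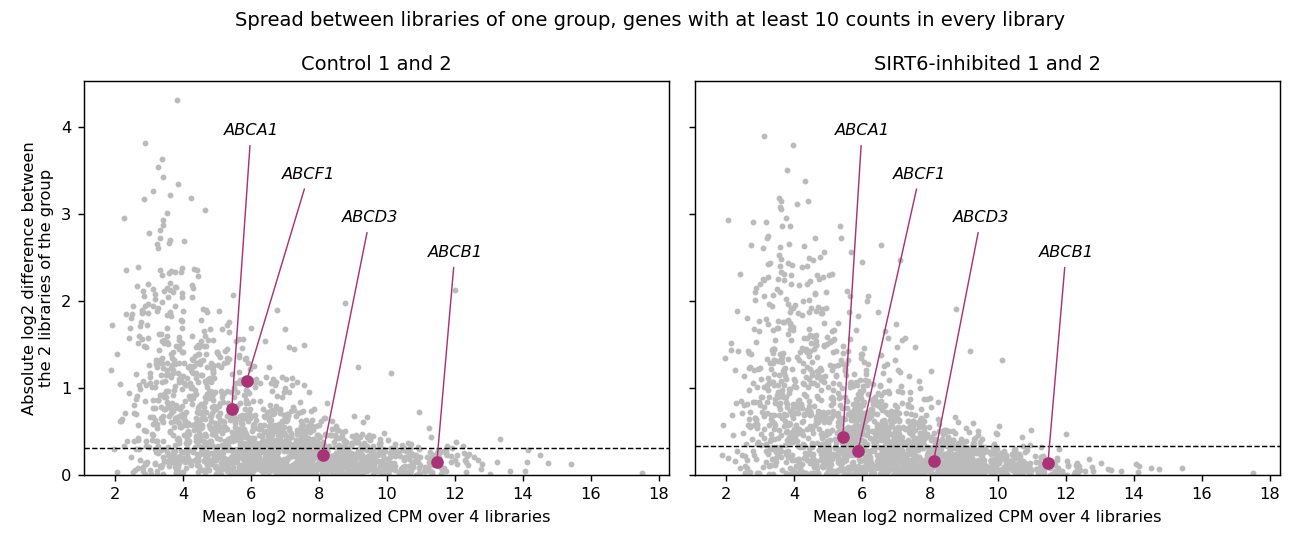
Absolute log2 difference in normalized CPM between the libraries of one group against mean log2 normalized CPM over 4 libraries, one grey point for each of 1840 genes, with 4 ABC genes in purple and a dashed line at the median (0.310 control, 0.336 SIRT6-inhibited). ABCB1 lies under the line in both groups, at 0.146 and 0.135.

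Ratios of ABCB1 to another member within one library do not depend on scaling between libraries. No transcript lengths were at hand, so these count ratios do not rank the transcripts' levels, and only their shifts between libraries were compared. ABCB1 counts were 11.2 and 8.62 times those of ABCD3 in control libraries and 10.9 and 10.7 times in SIRT6-inhibited libraries. This ratio was lowest in control 2, with the SIRT6-inhibited values between the control values and a mean log2 change of 0.14. ABCB1 to ABCA1 was 84.6 and 45.1 in control libraries against 57.0 and 84.6 in SIRT6-inhibited libraries, and ABCB1 to ABCF1 was 64.8 and 27.7 against 48.0 and 63.5. Both ratios were lower in control 2 and SIRT6-inhibited 1 than in the other library of the group. Their mean log2 changes, 0.17 and 0.38, were smaller than the SD between control libraries, 0.64 and 0.87 (n = 2). Between SIRT6-inhibited libraries the SD was 0.404 for ABCA1 and 0.285 for ABCF1 (n = 2), the latter smaller than the ABCF1 change. For ABCD3 the SD was 0.267 between control and 0.0149 between SIRT6-inhibited libraries (n = 2). Without control 2 the changes turned to -0.28 for ABCA1, -0.23 for ABCF1 and -0.05 for ABCD3, and without control 1 they were 0.62, 1.00 and 0.32. The ABCA1 change was also -0.12 without SIRT6-inhibited 2 and 0.45 without SIRT6-inhibited 1, and that of ABCF1 was 0.18 and 0.58. ABCB1 to CFTR, a family member under another symbol, was 82.0 and 84.2 in control libraries against 66.9 and 85.6 in SIRT6-inhibited libraries. Its mean log2 change of -0.13 was larger than the SD between control libraries, 0.03 (n = 2), and smaller than that between SIRT6-inhibited libraries, 0.25 (n = 2), and it was 0.04 without SIRT6-inhibited 1 and -0.31 without SIRT6-inhibited 2. For ABCA1 and ABCF1, the libraries with lower ratios were also those with the smaller totals, and the part of depth in this was not tested. ABCG2 was left out of the ratios because it had 0 counts in one library.

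The genes whose profile over the 4 libraries was closest to ABCB1 were ADH5, BTF3, UGP2, KPNA7 and ENY2. Likeness was the root mean square difference of log2(normalized CPM + 1), each gene centred on its own mean, over 1839 genes compared. The difference from ABCB1 was 0.00434 for ADH5, a formaldehyde-detoxifying dehydrogenase, and 0.0132 for BTF3, a subunit of the nascent polypeptide-associated complex. It was 0.0245 for UGP2, which makes UDP-glucose, 0.0272 for KPNA7, an importin of oocytes and early embryos, and 0.0285 for ENY2, a subunit of the SAGA complex. The median over all compared genes, many of them with low counts, was 0.297. These genes were picked for likeness in these same libraries, so their closeness to ABCB1 follows from the choice. Whether they are regulated with ABCB1 was not tested. ADH5, the closest, had 1850 and 1672 normalized CPM in control and 1717 and 1886 in SIRT6-inhibited libraries.

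Of the family members under other symbols, CFTR (ABCC7), a chloride channel, had 166 and 112 counts in control and 132 and 169 in SIRT6-inhibited libraries. These were 35.8, 31.5, 41.0 and 35.2 normalized CPM, overlapping between groups, and the log2 fold change was 0.18 (standard error 0.49, edgeR's adjusted p = 0.989). With a library left out, the CFTR value was 0.26 without control 1, 0.08 without control 2, 0.06 without SIRT6-inhibited 1 and 0.28 without SIRT6-inhibited 2. TAP1 and TAP2 pair to carry peptides into the endoplasmic reticulum for antigen presentation. TAP1 had 0 and 15 counts in control and 14 and 21 in SIRT6-inhibited libraries, or 0, 4.22, 4.35 and 4.37 normalized CPM. Both SIRT6-inhibited values of TAP1 lay above both control values, by a narrow margin over control 2, and the log2 fold change was 1.05 (standard error 2.43, edgeR's adjusted p = 0.984). Relative to unscaled totals control 2 was highest, and the TAP1 log2 fold change was 0.04 without control 1. Without control 2, which leaves a single control library at 0, TAP1 was at least 6.73-fold higher against 3 counts in that library. TAP2 had 9 counts in SIRT6-inhibited 1 and 0 in the other libraries, too few to be tested.

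Genes that act with each member were taken from lists written for this purpose, and 0 genes of any list passed adjustment in edgeR's test on the 2387 filtered genes with all libraries and no block. Around ABCD3, the list of peroxisome and acyl-CoA genes had 20 of 48 symbols in the table and 15 tested, with 4 lower and 0 higher at an unadjusted p under 0.05. That is 26.7% of the 15, beside 5.99% lower among all tested genes, and the list median was -0.23 beside -0.04. The lists were chosen with earlier results of these data known, so this excess is a description only. With at least 10 counts in every library, 3 of 13 list genes were lower, beside 133 of 1840 genes. The 4 genes were CROT, which moves medium-chain acyl groups from CoA to carnitine in peroxisomes, SCP2, a peroxisomal thiolase and lipid carrier, and ACSL1 and ACSL3, which activate long-chain fatty acids. CROT was at 461 and 459 normalized CPM in control libraries and 320 and 367 in SIRT6-inhibited libraries (log2 fold change -0.42, edgeR's adjusted p = 0.510). ACSL1 was at 67.6 and 86.1 against 26.4 and 43.3 (-1.14, adjusted p = 0.512), and ACSL3 at 1825 and 1803 against 1395 and 1538 (-0.31, adjusted p = 0.505). SCP2 had 48 and 18 counts in control libraries and 0 in both SIRT6-inhibited libraries. That is at least 9.91-fold lower against a floor of 3 counts in each library (edgeR's adjusted p = 0.505). Only its control counts took SCP2 past the low-count filter, so it could be called only as lower. The 3 of 13 genes given above do not include SCP2. The SCP2 bound was 6.51-fold without control 1, and its unadjusted call was lost there, without control 2, without SIRT6-inhibited 2, with the replicate block and with limma-voom. Over the whole list, the groups did not overlap for 9 of 15 genes, 7 lower and 2 higher, beside 40.1% of all tested genes, and those of ABCD3 itself overlapped. The list count of 4, not always of the same genes, became 0 without control 1, 1 without control 2, and 2 without either SIRT6-inhibited library. With a library left out, the log2 fold changes stayed below 0, from -0.53 to -0.33 for CROT, -1.54 to -0.83 for ACSL1 and -0.38 to -0.24 for ACSL3. It was 1 with the replicate number as a block. CROT lies near ABCB1 on chromosome 9, starting at 93263606, with ABCB4 as the only RefSeq gene starting between them. ABCB4, a close relative of ABCB1 that carries phosphatidylcholine, was not among the gene symbols listed, so it was not analysed here. How reads shared by ABCB1 and ABCB4 were assigned is not given in the sources used here, so ABCB1 counts are uncertain to that extent.

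Among transcription factors known to act on ABC genes, 20 of 32 symbols were in the table and 17 were tested. At an unadjusted p under 0.05, 1 was lower and 1 higher, with a list median of 0.16. These 2 are 11.8% of the 17, close to the 9.05% of all tested genes. PPARG, a lipid-sensing nuclear receptor that acts upstream of ABCA1 and ABCG2, was at 38.6 and 87.0 normalized CPM in control libraries and 14.6 and 15.6 in SIRT6-inhibited libraries. PPARG differed by -2.05 on the log2 scale (standard error 0.59, edgeR's adjusted p = 0.460), and without control 2 it was -1.36 and no longer under the unadjusted threshold. PPARD, a related receptor, was at 1216 and 1161 against 1446 and 1713 normalized CPM, which is 0.41 on the log2 scale (standard error 0.13, edgeR's adjusted p = 0.469). Without SIRT6-inhibited 2 the PPARD value was 0.28, also no longer under that threshold. NR1H3, the liver X receptor that switches on ABCA1, was at 28.1 and 21.7 against 32.9 and 29.2 (log2 fold change 0.32, standard error 0.59). For both ABCA1 and ABCG2 the libraries of the groups overlapped, and the intervals given above were wide. Whether these receptors acted on either gene in these oocytes was not tested.

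**Figure D4:**
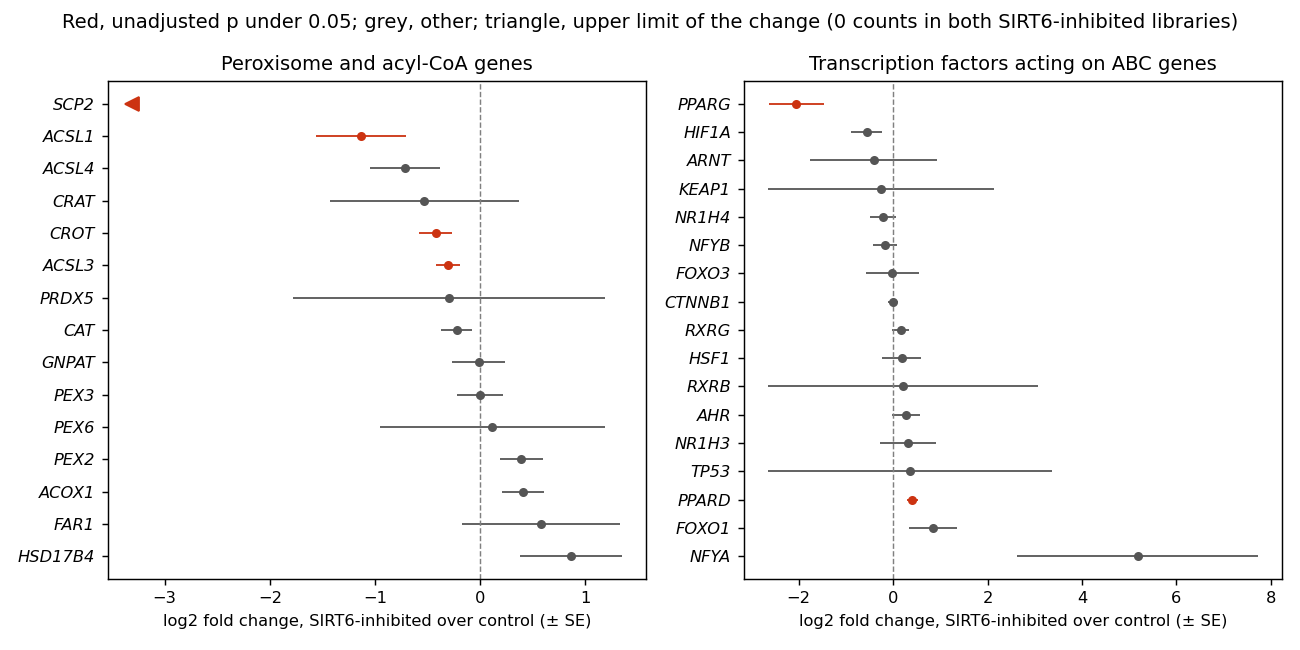
Log2 fold change in SIRT6-inhibited over control oocytes with its standard error (bars) for tested peroxisome and acyl-CoA genes (left, 15) and transcription factors acting on ABC genes (right, 17). Red marks an unadjusted p under 0.05, met by SCP2, ACSL1, CROT, ACSL3, PPARG and PPARD. The triangle is the bound of at least 9.91-fold lower for SCP2, which passed the low-count filter only through the control libraries.

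Cholesterol genes around ABCA1 had 0 of 17 tested members at an unadjusted p under 0.05, with 6 below and 11 above 0 and a median of 0.20. Glutathione and drug conjugation genes, which feed substrates to drug exporters, had 0 of 19, with a median of 0.04. Of 13 listed drug uptake and other efflux carriers, 8 had 0 counts in every library and 1 was tested, the peptide carrier SLC15A1, at 120 and 122 against 144 and 145 normalized CPM (log2 fold change 0.25, standard error 0.23). Around ABCF1, only 3 of 32 translation symbols were in the table, with 0 at an unadjusted p under 0.05 and a median of -0.67. Mitochondrial iron and haem genes, set beside the mitochondrial ABC members that were not analysed here, had 1 of 11 (9.09%, beside 9.05% of all tested genes), with a median of -0.10. This was TFRC, at 67 and 11 against 0 and 0 counts, at least 11.3-fold lower against 3 counts in each library (edgeR's adjusted p = 0.504). TFRC passed the low-count filter only through the control libraries, so it could be called only as lower. The TFRC bound was 3.98-fold without control 1, where the gene did not pass the filter, and 18.6-fold without control 2, and its unadjusted call was lost without control 2, with the replicate block and with limma-voom.

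ABCB1 is also made by cumulus cells, so markers of both cell types were read beside it. Of 14 oocyte markers, 0 were at 0 in any library, and their sum was 256833 and 260811 normalized CPM in control and 268486 and 273284 in SIRT6-inhibited libraries, led by DNMT1. Without DNMT1 the sums were 78418, 79942, 77680 and 79004, overlapping between groups. Over all 14 oocyte markers, 7 had a log2 fold change below 0 and 7 above, with a median of -0.0017. At an unadjusted p under 0.05, 2 of them were lower (14.3%, beside 5.99% lower among all tested genes). These were GDF9 (log2 fold change -1.65) and ZP2 (-0.37), with edgeR's adjusted p = 0.469 and 0.510. Over the alternatives the adjusted p of GDF9 ran from 6.71e-26 to 0.950 (0.00398 with the replicate block), passing 0.05 also without a filter and without either SIRT6-inhibited library. Without control 2 the log2 fold change of GDF9 was -0.95 and its unadjusted call was lost, as was that of ZP2. The GDF9 value was -2.13 without control 1, -2.46 without SIRT6-inhibited 1 and -1.14 without SIRT6-inhibited 2. The GDF9 call was also lost with DESeq2, and the ZP2 call without SIRT6-inhibited 2. Of 23 cumulus and granulosa markers, 12, 11, 17 and 11 were at 0 in control 1, control 2, SIRT6-inhibited 1 and SIRT6-inhibited 2. Their sum was 208, 222, 101 and 238 normalized CPM, led by VCAN at 82.7, 137, 38.8 and 142, and without VCAN it was 125, 85.9, 62.1 and 96.2. The median log2 fold change of the 10 tested was -0.51, beside -0.04 over all tested genes, with 7 below and 3 above 0. None of the 10 had an unadjusted p under 0.05. PTGS2, at 22 and 12 counts in control libraries and 0 in both SIRT6-inhibited libraries, passed the filter only through the controls. It could therefore only come out as lower. After VCAN, the most counted were INHBA, with 161, 95, 62 and 102 counts, and INHBB, with 139, 54, 0 and 65. COL1A2 had 79, 40, 50 and 74 counts and FST 75, 36, 17 and 69, all in the same order of libraries. FSHR, LHCGR, AMH, AMHR2, TNFAIP6, EFNB2 and AREG were at 0 in every library, and FOXL2 had 1 count in all. SIRT6-inhibited 1 was lowest for the cumulus marker sum and for the ABCB1 share of counts, 0.273%. Control 2 was lowest for ABCB1 in normalized CPM. The part of cumulus RNA in the ABC values was not tested. Fewer cells of a type and less RNA per cell cannot be told apart in these libraries.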

How the data were processed

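The authors deposited whole-number read counts per gene symbol, not normalized, for 4 libraries read with 150-bp paired ends. The submitters' processing notes name TopHat2 2.0.13, Cufflinks 2.2.1, Cuffnorm and Cuffdiff. The counting tool and strand setting are not given in the sources used here. Of 4381 symbols, 1458 had 0 counts in every library and 4296 (98.1%) matched a porcine RefSeq symbol. Counts were filtered with edgeR's filterByExpr (minimum count 10, minimum total 15), scaled by TMM and tested with edgeR 4.0.16 (quasi-likelihood, two-sided, Benjamini-Hochberg over 2387 genes) in R 4.3.3, without a block. DESeq2 1.42.0 and limma 3.58.1 were alternatives, with other scalings, other filters, a replicate block and each library left out. The fit was tested on simulated data. Named genes were the members, list genes at an unadjusted p under 0.05 and the 5 profiles closest to ABCB1. CFTR, TAP1, TAP2, SLC15A1 and NR1H3 were added from the lists. So were DNMT1 and VCAN, which led their marker sums. INHBA, INHBB, COL1A2, FST, PTGS2, FOXL2 and the cumulus markers at 0 in every library were also added. Members and lists were chosen with earlier results of these data known.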

Additional observations from a re-analysis of the deposited data

How the results depend on the processing

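The count of ABC genes at an unadjusted or adjusted p under 0.05 was 0 in all 14 other fits, 1 of them, at least 10 counts in every library, without ABCG2. DESeq2 gave ABCG2 no adjusted p. Signs were less stable. ABCB1 was -0.0166 with library totals only and -0.0346 to 0.108 with each library left out in turn, where the lone library of a group is assumed to vary like the other group. With a library left out, ABCA1 ran from -0.499 to 0.264, ABCD3 from -0.216 to 0.0196, ABCF1 from -0.884 to 0.202 and ABCG2 from -6.29 to 1.08, where -6.29 is a fitted value against 1 library at 0 and no measured fold (at least 3.57-fold lower against 3 counts, added after seeing the data). ABCG2 was -1.58 with the replicate block and -1.80 with limma-voom, and the cause was not tested. The count of lower peroxisome and acyl-CoA genes, 4 with edgeR, was 1 with the replicate block and 2 with DESeq2. Among all genes, adjusted calls numbered 0 with edgeR, 6 with the replicate block, 37 with DESeq2, 43 without a filter, 2 with at least 10 counts in every library, and 0 to 77 with a library left out (77 without SIRT6-inhibited 1). Same-numbered libraries had deviations correlated at -0.123, and the block changed no call of an ABC gene. The numbers were also crossed, a choice made after seeing the data. That fit called 0 ABC genes, 3 lower peroxisome and acyl-CoA genes and 2 of all genes, the last after adjustment. The floor of 3 counts was 0.625 to 0.932 normalized CPM. ABCG2 in SIRT6-inhibited 2 and TAP1 in control 1 were at 0, although these libraries had the larger totals of their groups.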
